A study of Homo sapiens with 6 samples.

Results

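Accessible regions at 9 imprinted gene loci were described in U2OS cells, a human osteosarcoma line, with and without CRAMP1. The loci were those of H19, IGF2, KCNQ1OT1 and CDKN1C on the distal short arm of chromosome 11, and of MEG3, SNRPN, PEG3, PEG10 and GNAS on 5 other chromosomes. Members were regions merged from overlapping ATAC-seq peaks that reached within 10 kb of these genes in hg19. A single peak of such a region could itself lie just outside. The members comprised 249 of 914202 deposited peaks, in 65 of 248031 regions. ATAC-seq marks open chromatin by cutting it with a transposase in isolated nuclei. The CRAMP1-KO group had 3 libraries labelled as carrying a knockout of CRAMP1, and the WT group had 3 libraries of the same line without that knockout. All 6 libraries were made alike, from 50000 cells with 30 min of tagmentation and 7 PCR cycles, and no treatment was labelled. The labels do not say whether the knockout is 1 clone or whether replicates were separate cultures, so the tests measure spread between libraries that may be technical.

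Imprinted genes are expressed mainly from the copy inherited from one parent. Control regions methylated on one parental chromosome mark the copies, and the unmethylated copy is the one bound by factors such as CTCF and usually the more open. The genes sit in clusters in which a growth-promoting gene and a growth-restraining gene often share a control region. Peak lists do not separate the parental copies, so every value below sums them.

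The lists held 133756, 139242 and 157997 peaks in CRAMP1-KO libraries, against 198875, 151646 and 132686 in WT libraries. WT replicate 1 stood apart, with the longest list and the lowest median fold enrichment, 4.25 against 5.96 to 6.26 in the other 5 libraries. The number of reads behind each list is not given in the sources used here. Depth was therefore read from the summit pileup, the number of reads or fragments stacked at a peak's highest point, whose median over regions shared by all libraries was 61, 62 and 96 in CRAMP1-KO libraries and 97, 87 and 53 in WT libraries. Pileups below are scaled to a common median, so their spread reflects counting error as well as differences between libraries. A peak over the CRAMP1 start was listed in all 6 libraries, so accessibility there did not check the knockout, and peak lists hold no expression with which to check the cell line.

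Of the 65 regions, 26 had a peak in all 6 libraries, 21 in 2 to 5 libraries and 18 in 1 library. Of the 18 regions of 1 library, 2 came from CRAMP1-KO libraries and 16 from WT libraries, 8 of them from WT replicate 1. That split over all regions is not given here, so nothing is read from it. In all, 3 of the 65 regions had peaks in CRAMP1-KO libraries alone and 22 in WT libraries alone, where the shares over all regions were 12.6% and 25.9%. Shared regions are those whose pileup can be tested: 2 at H19, 5 at IGF2, 2 at KCNQ1OT1, 3 at CDKN1C, 2 at MEG3, 3 at SNRPN, 1 at PEG3, 6 at GNAS and 2 at PEG10.

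**Figure D1:**
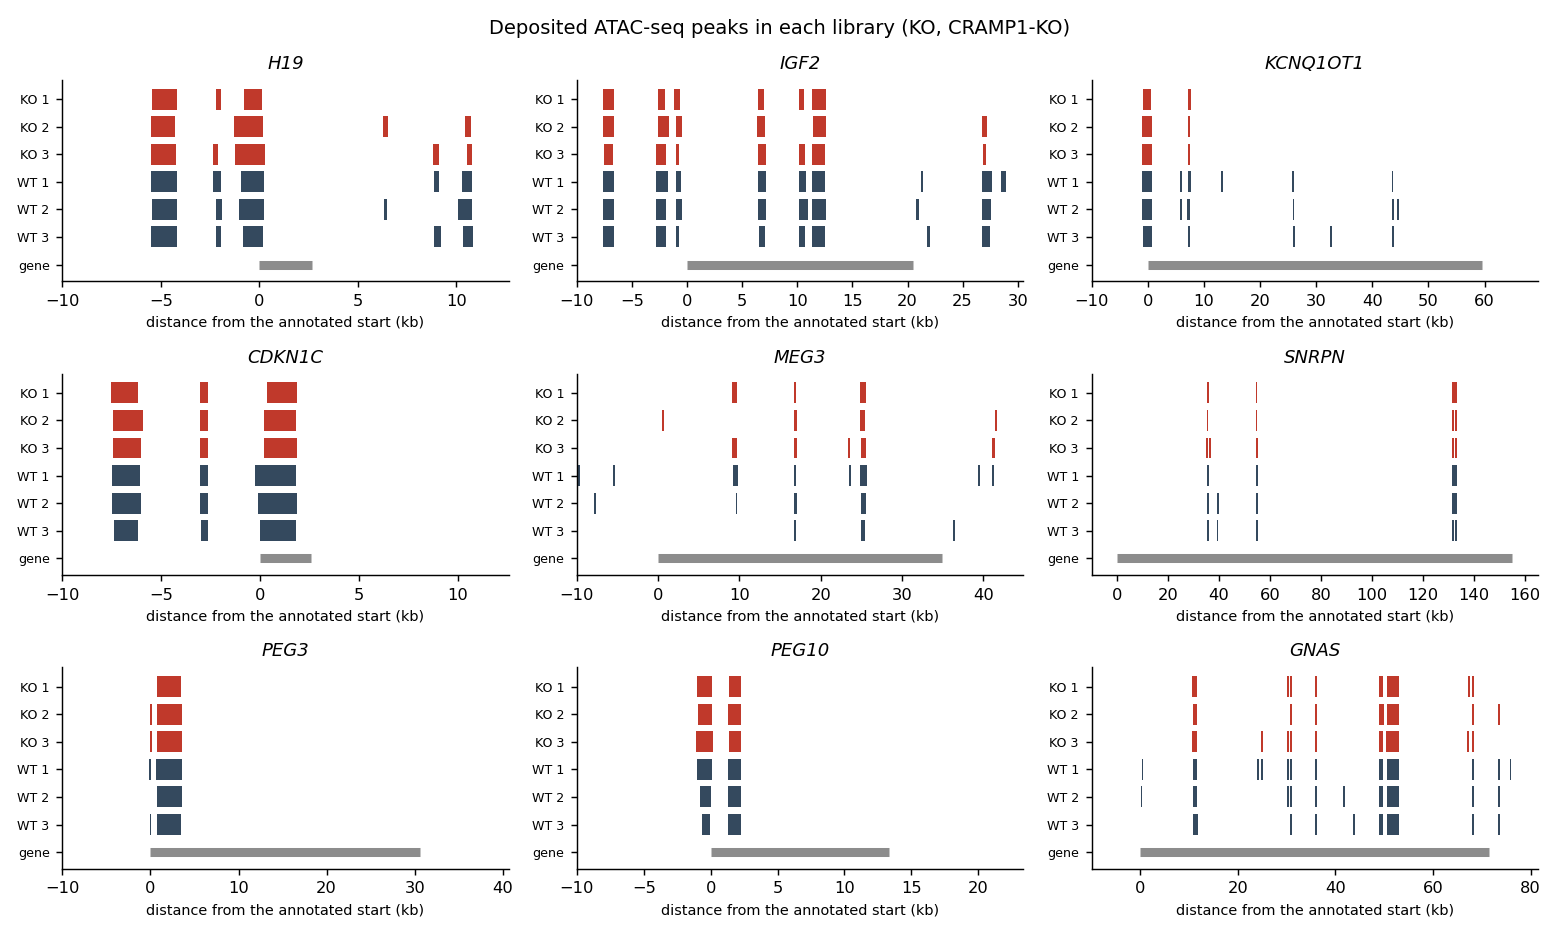
Deposited peaks at each locus by distance from the annotated gene start (kb, positive into the gene), with CRAMP1-KO libraries above WT libraries and the gene as a grey bar. At KCNQ1OT1 every CRAMP1-KO library held 2 peaks, while WT libraries held 6, 6 and 5.

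Promoter sequences from RefSeq (GRCh38.p14) are shown for starts whose accessibility is described below, since imprinted promoters carry the letters that methylation and its readers use. They run from 250 bases before the start to 50 after it. The hexamer TGCCGC, searched on both strands, is the core sequence recognised in methylated form by ZFP57, a zinc finger protein that keeps imprints, and it is in capitals as TGCCGC or GCGGCA. It occurred in 16.7% of 35116 promoters of the same length, and the median promoter had 14 CpG pairs. Promoters were held for 4 of the 9 loci, and a match describes letters, not binding.
SNURF and SNRPN, chr15:24954737-24955036, plus strand: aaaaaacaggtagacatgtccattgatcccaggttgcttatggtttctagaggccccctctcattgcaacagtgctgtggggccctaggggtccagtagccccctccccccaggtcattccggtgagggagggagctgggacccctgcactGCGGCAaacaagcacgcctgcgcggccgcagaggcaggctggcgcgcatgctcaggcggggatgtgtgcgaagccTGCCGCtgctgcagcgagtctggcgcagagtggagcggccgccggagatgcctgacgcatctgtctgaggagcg
MEG3, chr14:100825858-100826157, plus strand: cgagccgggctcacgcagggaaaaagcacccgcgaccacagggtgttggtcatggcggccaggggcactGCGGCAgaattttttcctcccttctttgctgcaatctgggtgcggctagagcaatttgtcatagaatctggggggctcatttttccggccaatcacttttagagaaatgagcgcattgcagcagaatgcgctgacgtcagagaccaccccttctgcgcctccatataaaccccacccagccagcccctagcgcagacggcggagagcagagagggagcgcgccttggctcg
GNAS, first start, chr20:58839498-58839797, plus strand: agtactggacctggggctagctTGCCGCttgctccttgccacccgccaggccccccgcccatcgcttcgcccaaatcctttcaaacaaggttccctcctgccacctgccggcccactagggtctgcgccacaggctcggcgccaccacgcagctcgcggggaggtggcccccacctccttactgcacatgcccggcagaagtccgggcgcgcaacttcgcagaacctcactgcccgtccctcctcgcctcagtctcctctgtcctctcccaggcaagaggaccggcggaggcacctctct
GNAS, start at 49432 bp, chr20:58888930-58889229, plus strand: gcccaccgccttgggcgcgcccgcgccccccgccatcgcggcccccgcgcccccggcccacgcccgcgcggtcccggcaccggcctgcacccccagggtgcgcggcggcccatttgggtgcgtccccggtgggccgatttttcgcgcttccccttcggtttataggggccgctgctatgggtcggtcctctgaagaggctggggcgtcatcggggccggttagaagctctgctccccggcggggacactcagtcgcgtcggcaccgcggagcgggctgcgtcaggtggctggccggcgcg
The shared start of SNURF and SNRPN had 2 hexamers and 18 CpG pairs. It lies 131350 bp from the first annotated SNRPN start in GRCh38. Of SNRPN starts not printed, those at 32934 and 39335 bp had no hexamer and that at 132663 bp had 1. MEG3 had 1 hexamer and 19 CpG pairs, and the first GNAS start 1 hexamer and 21 CpG pairs. The GNAS start at 49432 bp had no hexamer and 43 CpG pairs, more than 95% of promoters. GNAS starts not printed, at 1872, 12968, 13233 and 48665 bp, also had no hexamer. The H19 promoter had no hexamer and 6 CpG pairs. RefSeq gives H19 6091 bp in GRCh38, against 2660 bp in the hg19 limits used here, so that promoter need not be at the H19 start described below.

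At the 4 loci on chromosome 11, summit pileup was lower in CRAMP1-KO cells at 9 of 12 shared regions and higher at 0, and at the 5 other loci it was lower at 1 of 14 and higher at 0 (limma, adjusted p under 0.05 over all 92505 shared regions). Over all shared regions 9.78% were called lower and 7.34% higher. With a prior spread that follows the mean pileup, a setting added after the data were seen, the lower calls were 10 of 12 and 4 of 14 and the higher calls 0, against 15.5% lower and 9.36% higher of all shared regions. The median change was -0.58 on the log2 scale at the 4 loci and -0.09 at the 5 others, beside -0.07 over all shared regions. Both genes of the first pair, H19 and IGF2, had every shared region called lower, as was the start of CDKN1C, whereas the start of KCNQ1OT1 was not. Fewer copies of a locus per cell and less accessibility per copy cannot be told apart in these lists. All CRAMP1-KO libraries lay below all WT libraries at 13 of the 26 regions, 10 of them on chromosome 11, and above them at 1, at MEG3. Such separation occurred in the lower direction at 23.7% and in the higher direction at 14.4% of all shared regions. At an unadjusted p of 0.05, 0 members were higher.

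**Figure D2:**
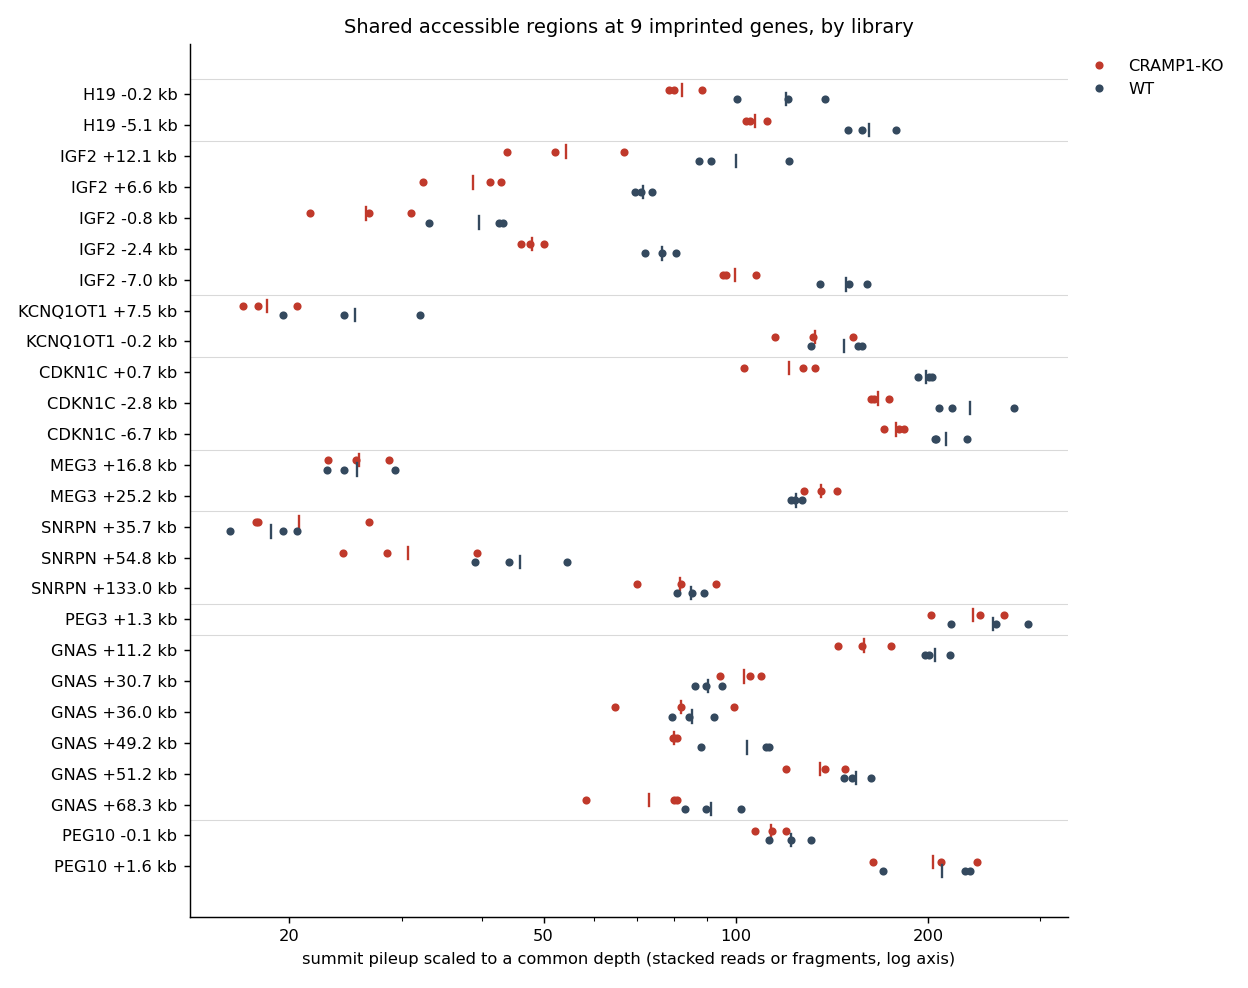
Summit pileup scaled to a common depth (log axis) at the 26 shared regions, named by gene and summit distance from the annotated start. Points are libraries, ticks the means of 3, with CRAMP1-KO in red above WT in blue. The groups stand apart at H19, IGF2 and CDKN1C and overlap at KCNQ1OT1, SNRPN, PEG3 and PEG10. They also stand apart at GNAS 11.2, 49.2 and 68.3 kb, and at MEG3 25.2 kb with CRAMP1-KO higher.

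H19 gives a maternally expressed noncoding RNA that restrains growth, and the control region upstream of it, bound by CTCF on the maternal copy, governs both H19 and IGF2. The region over the start, chr11:2018795-2020324, had a scaled summit pileup of 79.9, 78.6 and 88.5 in CRAMP1-KO libraries, against 101, 121 and 138 in WT libraries. The stronger region upstream, chr11:2023218-2024563 with its summit at -5.1 kb, had 105, 112 and 104 in CRAMP1-KO libraries, against 150, 178 and 157 in WT libraries. In both the groups were apart. The log2 changes were -0.53 (SE 0.13, limma adjusted p = 0.023) and -0.59 (SE 0.11, adjusted p = 0.00719). The call at the start was lost without CRAMP1-KO replicate 1 or 2 or WT replicate 2 or 3, at adjusted p of 0.0621 to 0.0773, and that upstream was kept without any 1 library. Both overlap an approximate hand-drawn control window, as does a weaker region between them, chr11:2020965-2021439, which was listed in 2 of 3 CRAMP1-KO libraries at 36.3 and 44.6 and in 3 of 3 WT libraries at 64.0, 49.2 and 53.0. The other 3 regions lay downstream in 2 to 5 libraries.

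IGF2 encodes a fetal growth factor expressed from the paternal copy, read from several promoters. Its strongest region by fold enrichment, chr11:2177437-2178488 at -7.0 kb, had a scaled pileup of 108, 96.5 and 95.4 in CRAMP1-KO libraries, against 136, 150 and 160 in WT libraries. Within the gene, chr11:2163676-2164467 at 6.6 kb had 41.2, 42.9 and 32.3 in CRAMP1-KO libraries, against 73.9, 69.6 and 71.1 in WT libraries. CRAMP1-KO values there averaged 38.8 ± 5.67, against 71.5 ± 2.16 in WT cells (SD, n = 3 each), a ratio of 0.538. These were a log2 change of -0.57 (SE 0.12, limma adjusted p = 0.00922) at -7.0 kb and of -0.89 (SE 0.13, adjusted p = 0.00213) at 6.6 kb.

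The region at 12.1 kb of IGF2, chr11:2158190-2159537, had 52.1, 66.7 and 43.9 in CRAMP1-KO libraries, against 91.4, 87.4 and 121 in WT libraries. The log2 change was likewise -0.89 (SE 0.17, adjusted p = 0.00731). Upstream of the annotated start, chr11:2172448-2173639 had 46.0, 47.7 and 50.0 in CRAMP1-KO libraries, against 80.7, 72.2 and 76.7 in WT libraries. No libraries of the groups overlapped at either. The nearest region to the start, chr11:2171339-2172055, had 26.6, 31.0 and 21.5 in CRAMP1-KO libraries, against 42.6, 33.1 and 43.2 in WT libraries. Their log2 changes were -0.68 (limma adjusted p = 0.00337) and -0.59 (adjusted p = 0.0272). The last of these calls was lost without CRAMP1-KO replicate 1 or 3 or WT replicate 1 or 3 (adjusted p 0.0580 to 0.0861), while the other 4 at IGF2 held without any 1 library. The remaining 6 IGF2 regions comprised 2 listed in 2 of 3 CRAMP1-KO and 3 of 3 WT libraries and 4 listed in 1 WT library each, all 4 downstream.

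KCNQ1OT1 is a long noncoding RNA made from the paternal copy within the KCNQ1 gene, and it silences CDKN1C and other neighbours on that copy. Its start lies in the control region KvDMR1. The region over the start, chr11:2720387-2722322, had a scaled pileup of 132, 152 and 115 in CRAMP1-KO libraries, against 131, 155 and 157 in WT libraries. The groups overlapped, and the log2 change was -0.15 with a 95% confidence interval of -0.45 to 0.14 (limma adjusted p = 0.444). The second shared region, chr11:2713539-2714271 at 7.5 kb, was weak, at 20.6, 17.9 and 16.9 in CRAMP1-KO libraries, against 24.4, 19.5 and 32.1 in WT libraries. Its log2 change was -0.43 (adjusted p = 0.102, and 0.0396 without WT replicate 2).

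Within the KCNQ1OT1 window the lists differed in which regions they held. RefSeq gives KCNQ1OT1 91667 bp in GRCh38, against 59461 bp in the hg19 limits used here, so part of that transcript lay outside the window. Each CRAMP1-KO library held 2 peaks in the window, those at the start and at 7.5 kb, against 6, 6 and 5 in WT libraries. The other 6 regions had no CRAMP1-KO peak: 2 were listed in 3 of 3 WT libraries, 1 in 2 and 3 in 1. The stronger of the first 2, chr11:2677413-2677770 at 43.6 kb, had a scaled pileup of 46.4, 39.1 and 41.8 in WT libraries. The other, chr11:2695120-2695513 at 25.9 kb, had 19, 17 and 15.3. A list gives no value where no peak was called, and the lowest scaled pileups listed anywhere were 12.1, 10.7 and 8.46 in CRAMP1-KO libraries. Across all regions 1.14% were listed in 3 of 3 WT and 0 of 3 CRAMP1-KO libraries, and 2.95% of the 1763 other regions in the first 15 Mb of chromosome 11.

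As a share of each library's list, the KCNQ1OT1 window held 0.140 ± 0.0119 peaks per 10000 in CRAMP1-KO libraries, against 0.358 ± 0.0497 in WT libraries (SD, n = 3 each, two-sided exact permutation p = 0.1, the smallest that 3 against 3 allow). It held 25.6 ± 1.46 covered bases per 1000000 in CRAMP1-KO libraries, against 39.0 ± 2.33 in WT libraries, again without overlap. As a share of peaks in the first 15 Mb of chromosome 11 it was 22.6 ± 1.96 per 10000 in CRAMP1-KO libraries, against 45.9 ± 5.40 in WT libraries. Peak shares were also lower without overlap at the IGF2 and GNAS windows, so at 3 of 9 windows, and covered shares at 2 of 9, KCNQ1OT1 and IGF2. As a share of peaks in the segment, IGF2 turned to 71.2 ± 2.90 per 10000 in CRAMP1-KO libraries, against 67.7 ± 8.53 in WT libraries, with overlap. The GNAS difference turned to 0.074 per 10000 when only peaks of −log10 q 5 or more were kept. Over 50-kb tiles of the genome 9.35% were lower without overlap by peak share and 9.3% by covered share. By share of the whole list no window was higher without overlap, where 5.42% and 11.4% of tiles were. By share of the segment's peaks CDKN1C was, at 33.9 ± 2.94 per 10000 in CRAMP1-KO libraries, against 24.6 ± 4.45 in WT libraries (two-sided exact permutation p = 0.1), with 3 peaks in every library.

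CDKN1C encodes a cyclin-dependent kinase inhibitor expressed from the maternal copy, and its loss causes overgrowth. All 3 of its regions were shared. The region at its start, chr11:2905131-2907268, had a scaled pileup of 103, 127 and 133 in CRAMP1-KO libraries, against 193, 203 and 201 in WT libraries. Pileup thus averaged 121 ± 16 in CRAMP1-KO cells, against 199 ± 5.40 in WT cells (SD, n = 3 each), a ratio of 0.606 and a log2 change of -0.72 (SE 0.13, limma adjusted p = 0.00452).

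Upstream of CDKN1C, chr11:2909628-2910062 had 165, 174 and 163 in CRAMP1-KO libraries, against 218, 208 and 273 in WT libraries. Its log2 change of -0.47 had an adjusted p of 0.0305, which was 0.0575 to 0.1 without CRAMP1-KO replicate 1, 2 or 3 or WT replicate 3. The region with the highest fold enrichment of the locus, chr11:2912897-2914522, had 171, 183 and 180 in CRAMP1-KO libraries, against 206, 230 and 205 in WT libraries. Although its groups did not overlap, its log2 change of -0.26 did not pass (95% confidence interval -0.50 to -0.02, limma adjusted p = 0.125, and 0.0413 with the spread following the mean pileup).

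The 4 loci were then set against the rest of the first 15 Mb of chromosome 11. Of 624 other shared regions there, 47.3% were called lower and 0.481% higher in CRAMP1-KO cells, with a median log2 change of -0.42. By megabase, medians were -0.61, -0.73 and -0.61 in the first 3 Mb, which hold the 4 genes, and between -0.26 and -0.44 in the other 12. At 2 to 3 Mb, where the 4 genes lie, 34 of 45 other regions were called lower, beside 9 of 12 members. The segment fit was centred on all 624 regions, not on that megabase. Seen against each library's median of those 624 regions, 1 of the 12 members was called lower and 0 higher, where 7.7% and 10.1% of the 636 regions of the segment were (limma, adjusted p under 0.05 within the segment). The 1 was IGF2 at 6.6 kb, with a log2 change of -0.46 (SE 0.12, adjusted p = 0.0271), and 6.57% of the other regions lay lower. That call was lost without CRAMP1-KO replicate 3 or WT replicate 1, 2 or 3 (adjusted p 0.0625 to 0.0820). IGF2 at 12.1 kb lay nearly as low within the segment, at -0.45 (SE 0.16, limma adjusted p = 0.0760), and was not called. Its adjusted p was 0.0289 without CRAMP1-KO replicate 2 and 0.0121 with the spread following the mean pileup.

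Within the segment, the start of KCNQ1OT1 was on the other side of the median, at 0.28 (95% confidence interval 0.00 to 0.56, adjusted p = 0.153). The start of CDKN1C was at -0.29 (adjusted p = 0.166) and that of H19 at -0.09 (adjusted p = 0.711). The difference between any of these loci was not tested.

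**Figure D3:**
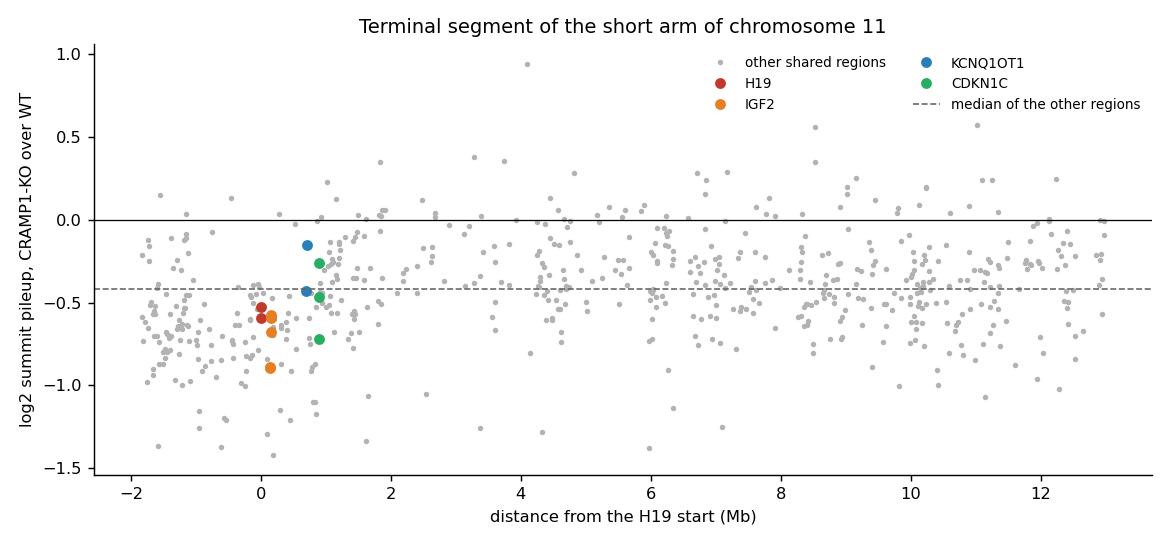
Log2 change in scaled summit pileup, CRAMP1-KO over WT, of shared regions in the first 15 Mb of chromosome 11 by distance from the H19 start (Mb). Grey points are the 624 other regions and the dashed line their median of -0.42; H19, IGF2 and CDKN1C lie below 0 among their neighbours, and the start of KCNQ1OT1 lies at -0.15.

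The local background, the pileup that the peak caller took as the surrounding level, fell with the summits on chromosome 11. It was called lower at 10 of 12 regions of the 4 loci and at 0 of 14 regions of the 5 others, against 7.55% lower and 7.81% higher of all shared regions (limma, adjusted p under 0.05). At MEG3 16.8 kb and SNRPN 35.7 and 54.8 kb it sat at each library's lowest listed level, so its change of -0.0152 there was fixed. The median over all shared regions was also -0.0152. At IGF2 6.6 kb the scaled background was 6.2, 6.3 and 5.5 in CRAMP1-KO libraries, against 11.6, 10.6 and 10.9 in WT libraries, a log2 change of -0.88 (adjusted p = 3.9e-07) beside -0.89 for the summit. Fold enrichment, the authors' ratio of summit to background, was called at 0 of the 26 members in either direction by limma, with 3 under an unadjusted p of 0.05, against 2.08% lower and 3.09% higher of all shared regions. No other tool was run on it. Centred on the segment, fold enrichment was called at 0 of the 12 members by limma, with 0 under an unadjusted p of 0.05, against 1.42% lower and 1.42% higher of the segment's regions. Local background so centred was called lower at 2, both in IGF2, and higher at 1, the start of KCNQ1OT1, against 10.1% lower and 26.4% higher. Width was called at 0 of 26, with 2 under an unadjusted p of 0.05, against 0.0259% narrower and 0.0822% wider.

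**Figure D4:**
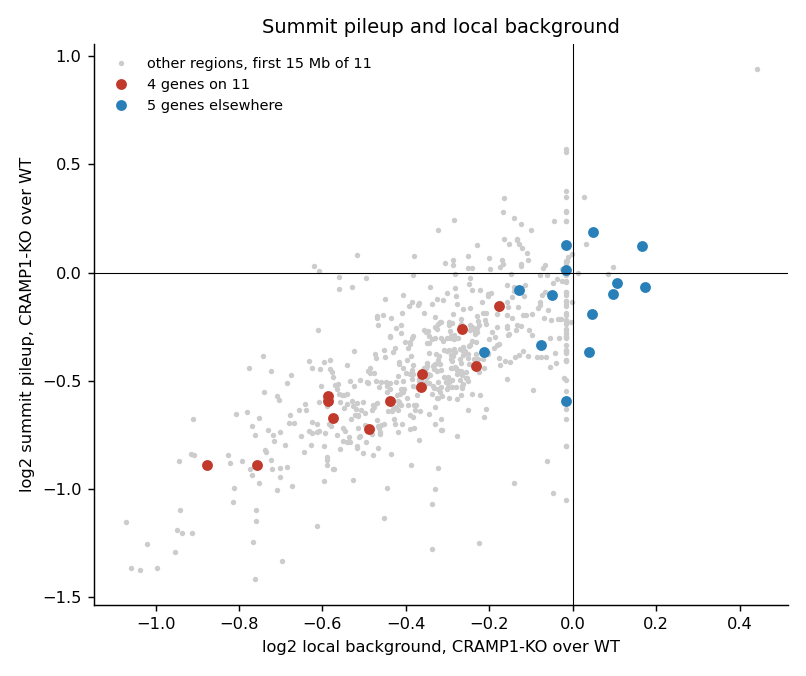
Log2 change of summit pileup against log2 change of local background, CRAMP1-KO over WT, at shared regions. The 12 regions of the 4 genes on chromosome 11 (red) lie below 0 on both axes, among other regions of its first 15 Mb (grey), and those of the 5 genes elsewhere (blue) lie on both sides of 0 in background.

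MEG3 gives a maternally expressed noncoding RNA with tumour suppressor activity. No peak covered its annotated start, and the only peak in the control window there was in CRAMP1-KO replicate 2, chr14:101292961-101293134, at a scaled pileup of 15.5. The strongest region lay inside the gene, chr14:101317280-101318169 at 25.2 kb, with the highest median fold enrichment of all 65 regions, 18.5. It had 144, 136 and 128 in CRAMP1-KO libraries, against 127, 122 and 124 in WT libraries. The groups did not overlap, with CRAMP1-KO higher, but the log2 change of 0.12 did not pass (95% confidence interval -0.11 to 0.36, limma adjusted p = 0.442). Local background at this summit changed by 0.17 (adjusted p = 0.163).

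SNRPN encodes a spliceosomal protein of neurons and lies in the region lost in Prader-Willi syndrome, where its shared start with SNURF is the control region, open on the paternal copy. No peak lay within 10 kb of the first annotated start in any library. The region chr15:25200017-25202078, which begins 131223 bp from that start in hg19, joined 2 peaks in every library. The taller, with its summit at 133 kb, had 93.2, 82.2 and 70 in CRAMP1-KO libraries, against 85.3, 89.1 and 80.8 in WT libraries. For it the groups overlapped, with a log2 change of -0.07 (95% confidence interval -0.35 to 0.22, limma adjusted p = 0.751). The other peak, where the region begins, had unscaled pileups of 53, 44 and 71 in CRAMP1-KO libraries, against 91, 48 and 45 in WT libraries. It was not tested by itself. In the gene's upstream part, chr15:25123089-25123754 at 54.8 kb had 24.2, 39.3 and 28.5 in CRAMP1-KO libraries, against 44.2, 39.1 and 54.4 in WT libraries. CRAMP1-KO replicate 2 overlapped the lowest WT library. It was the member off chromosome 11 that passed, with a log2 change of -0.60 (SE 0.18, limma adjusted p = 0.0453). Its local background sat at each library's lowest listed level, so its change of -0.02 was fixed by those levels. Its fold enrichment changed by -0.56 (limma adjusted p = 0.066). The call was lost without CRAMP1-KO replicate 1 or 3 or WT replicate 1 or 3 (adjusted p 0.0877 to 0.141) and in a fit with replicate number as a block (0.0579).

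PEG3 encodes a zinc finger protein expressed from the paternal copy. Its control region at the start was among the tallest members, chr19:57348516-57351431, with 241, 263 and 202 in CRAMP1-KO libraries, against 217, 256 and 287 in WT libraries. A small region at the start itself, chr19:57351949-57352210, was listed in 2 of 3 libraries of each genotype. PEG10, which encodes a protein derived from a retrotransposon, had 2 regions, both shared. At its start, chr7:94284576-94285798 had 120, 107 and 114 in CRAMP1-KO libraries, against 122, 113 and 131 in WT libraries. Just inside the gene, chr7:94286897-94287934 had 209, 238 and 164 in CRAMP1-KO libraries, against 170, 233 and 229 in WT libraries. Groups overlapped at all 3 shared regions of these genes, and their log2 changes were -0.10, -0.10 and -0.05 with 95% confidence intervals inside -0.42 to 0.32 (limma adjusted p of 0.563 to 0.864).

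GNAS encodes the stimulatory G protein alpha subunit and is a cluster of alternative starts with imprints of opposite parental origin. Its first start, of the NESP transcript from the maternal copy, had no CRAMP1-KO peak, and a weak one in WT replicates 1 and 2, chr20:57414854-57415389, at 15.2 and 14.4. The strongest region, chr20:57425371-57426562 at 11.2 kb on the GNAS-AS1 side, had 157, 175 and 145 in CRAMP1-KO libraries, against 198, 216 and 201 in WT libraries. The groups were apart, while the log2 change of -0.37 missed the threshold (SE 0.12, limma adjusted p = 0.0515). With a pseudocount of 5 it was -0.36 at an adjusted p of 0.0389, and with the spread following the mean pileup its adjusted p was 0.00398.

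The exon A/B part of GNAS, where the printed start at 49432 bp lies by spacing in GRCh38, held 2 regions in the hand-drawn control window. The first, chr20:57463621-57464762, had 79.9, 79.8 and 80.8 in CRAMP1-KO libraries, against 113, 88.3 and 111 in WT libraries, a log2 change of -0.37 (adjusted p = 0.0645, 0.0397 without WT replicate 2, and 0.0176 with the spread following the mean pileup). The second, chr20:57465238-57467825, had 120, 138 and 148 in CRAMP1-KO libraries, against 163, 148 and 152 in WT libraries. Its change was -0.19 (95% confidence interval -0.45 to 0.07, adjusted p = 0.287). The 3 other shared GNAS regions, at 30.7, 36.0 and 68.3 kb, had log2 changes of 0.19, -0.08 and -0.34 and did not pass, but that at 68.3 kb had an adjusted p of 0.0476 with the spread following the mean pileup. In addition, chr20:57404470-57404959 at -10.1 kb was listed in 3 of 3 WT libraries, at 16.8, 13.6 and 16.7, and in 0 of 3 CRAMP1-KO libraries. It lay at the edge of the window, which begins at 57404795, and its peak in WT replicate 3 ended outside, at 57404694. The lowest scaled pileups listed anywhere in WT libraries were close to these, at 9.90, 9.34 and 12.5. With the 2 at KCNQ1OT1 this GNAS region made 3 of the 65 member regions of that kind, which 1.14% of all regions were. The opposite pattern was seen at 0 members and at 0.767% of all regions.

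A list of 14 other imprinted genes was counted for comparison, taken from general knowledge of imprinting. They had 48 shared regions, of which 4 were called lower and 4 higher in CRAMP1-KO cells, with a median log2 change of -0.03 (limma, adjusted p under 0.05 over all shared regions). Over all shared regions the shares were 9.78% and 7.34%, close to those of these genes, so nothing about imprinted genes as a group is read from the calls. Of the 4 lower, 2 were at PHLDA2, a growth restrainer in the same chromosome 11 segment as CDKN1C (-0.44 and -0.50, adjusted p of 0.0282 and 0.0269). Another lay in the window of IGF2R, which encodes the receptor that clears IGF2, at chr6:160382529-160383070. It had 23, 26.2 and 23.9 in CRAMP1-KO libraries, against 48.0, 45.8 and 55.7 in WT libraries, a log2 change of -1.03 (adjusted p = 0.000879). A second IGF2R region, chr6:160493111-160494010, was higher at 0.45 (adjusted p = 0.0401).

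The other calls were in the windows of GRB10, DIRAS3 and NAP1L5. For GRB10, an adaptor that restrains growth signalling, 1 of 11 shared regions was lower, at -0.44 (limma adjusted p = 0.0387). The median change of those 11 was 0.03. For the small GTPase gene DIRAS3, 2 of 4 were higher, at 0.63 and 0.68 (limma adjusted p of 0.032 and 0.00925). The nucleosome assembly gene NAP1L5 had the largest rise of these 48, at 1 of its 2 shared regions, chr4:89627376-89628123. It had 50.9, 53.6 and 60.8 in CRAMP1-KO libraries, against 34.3, 26.3 and 20.9 in WT libraries, a log2 change of 1.05 (adjusted p = 0.00321). Its local background changed by -0.0152, the value at sites where background sat at each library's lowest level, so that change does not describe its surroundings. DLK1, the neighbour of MEG3, had no shared region.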

How the data were processed

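The deposited files are 1 narrowPeak list per library, made by the authors. Per the submitters' processing notes, bcl2fastq 2.20.0, cutadapt 3.4, BWA 0.7.17-r1188, MACS3 and the hg19 build were used. Of the MACS3 version and settings, duplicate removal and read shift, nothing is given in the sources used here. The deposited values per peak are fold enrichment (a ratio), −log10 p and −log10 q at the summit, with q at most 0.05, and a score that is 10 times −log10 q. These values compare a summit with its own library's background and are not counts. A window or tile counts only what was called, so longer lists list more weak peaks.

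Summit pileup and local background were solved for each peak from fold enrichment and −log10 p, using the caller's pseudocount of 1. Pileups came out whole within 0.01 for 100% of peaks. Peaks overlapping by 1 bp were merged, and the highest peak stood for a region. Log2 pileup, with no pseudocount, was centred per library on the median of shared regions, or of the 624 other regions for the segment fit. It was tested with limma 3.58.1 in R 4.3.3, with Benjamini-Hochberg adjustment over all regions fitted. Window shares were compared by exact permutation. Scripts ran in Python 3.11.15 and were tested on simulated data. Named regions are those over a start or in a control window, the highest fold enrichment of a locus, and any called or genotype-only region; others were named after their values were seen. Control windows and the 14 other genes' limits were written by hand, approximately, and not checked against an hg19 annotation. The members and lists were chosen with earlier results of these data known. The labels do not say whether a replicate number marks a shared day or culture, so the main fits did not pair libraries. Deviations of same-numbered libraries correlated at 0.06, 0.06 and -0.09, which cannot settle that. Alternatives tried are below.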

Additional observations from a re-analysis of the deposited data

How the results depend on the processing

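Of the 10 members with lower pileup, 6 kept their call without any 1 library: H19 at -5.1 kb, IGF2 at -7.0, -2.4, 6.6 and 12.1 kb, and CDKN1C at 0.7 kb. Without 1 library the count was 6 to 11, and 6 without CRAMP1-KO replicate 1 or WT replicate 3. With fold enrichment as the value it was 0. With replicate number as a block it was 9, and width stayed at 0. Scaling by the lowest local background shifted every region by 0.02 (log2) and left 8. With an intensity trend it was 14. Within the first 15 Mb of chromosome 11 the 1 lower call became 0 with fold enrichment, where IGF2 at 6.6 kb turned to 0.0152. The same count was 2 with local background, 3 with an intensity trend, 4 over a larger set of 16 regions in at least 2 libraries of each genotype (1 of the 12 and 3 of 4 added), and 0 to 2 without 1 library. Local background and the trend, both chosen after seeing the data like fold enrichment there, each gave 1 higher call, KCNQ1OT1 at its start. Under the block the segment count stayed 1.

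Windows with a lower peak share numbered 3 to 5 without 1 library, and 5 without WT replicate 1. Those lower in covered share, 2 as reported, were 4 with 25 kb on either side (with 1 higher), 4 with equal lists, and 2 to 5 without 1 library (with 0 to 1 higher). As shares of the segment, the 4 loci gave 1 window lower (KCNQ1OT1) and 1 higher (CDKN1C, 3 peaks in every library) in peaks, and 1 lower in covered bases. The GNAS peak share turned to 0.074 with −log10 q of at least 5. Regions listed in all libraries of 1 genotype and none of the other, 0 for CRAMP1-KO and 3 for WT as reported, numbered 0 to 1 for CRAMP1-KO and 3 to 5 for WT without 1 library. The causes were not tested. Of 946 single values under alternatives, 68 without a call changed sign. Depth limits regions near the lowest listed pileup, where a missing peak does not show that a site was closed.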
